A study of Mus musculus with 12 samples.

Results

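Reads of the miRNA cluster Mir99b-let7e-Mir125a and of its relatives Mir99a, Mir100, Mir125b-1 and Mir125b-2 were followed in small RNA-seq libraries of mouse embryonic stem cells (ESCs). These 7 genes were chosen by name, with no threshold on their values, from a table of 32101 annotated features, of which 1577 are miRNA genes. The 12 libraries fell into 3 genotypes, with 6 libraries from 3 cultures of wild-type cells (WT), 2 libraries from 1 culture of Dnmt1 -/- cells (Dnmt1 KO) and 4 libraries from 2 cultures of Dicer/Dnmt1 -/- cells (Dicer/Dnmt1 KO). Libraries A and B of each number are called 1 culture here, and the labels do not say whether A and B were grown separately, so that p-values may measure technical spread. Dnmt1 encodes the enzyme that copies DNA methylation onto newly made DNA, and Dicer encodes the ribonuclease that cuts miRNA hairpins into mature miRNAs.

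All libraries carry the label E14, whereas the study's methods describe the cells with loxP sites in Dnmt1 as a C57BL/6 line. By those methods the cells grew in serum and LIF, with or without feeder cells, and Cre induced by tamoxifen removed the loxP-flanked genes. A line with loxP sites in both Dicer and Dnmt1, and another with Dicer constitutively deleted, were made from the Dnmt1 loxP line with CRISPR/Cas9. Both were screened from single-cell colonies. In the latter Cre removes Dnmt1 alone. The paper reports small RNA-seq of the former, but the labels do not say which line the Dicer/Dnmt1 KO libraries came from. Neither the time since deletion nor the use of feeders is given for a library. A difference of line or culture between WT and the knockouts therefore cannot be told apart from genotype.

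In vertebrates the miR-99/100, let-7 and miR-125 families lie side by side in paralogous clusters, and the hairpins of a cluster are cut from shared long transcripts. A mature miRNA finds its targets mainly through its seed, the bases near its 5′ end. Members of the let-7 family are kept low in ESCs, where LIN28 blocks the cutting of their hairpins, and rise on differentiation, while miR-125 is the vertebrate counterpart of lin-4 of the nematode and itself targets Lin28. The miR-99/100 family is known for targeting mTOR and other growth genes.

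Of the 7 genes, 5 passed the filter on low values and were tested, and each had a read in some library. In Dicer/Dnmt1 KO against WT, 3 of the 5 were higher (let-7e, Mir100 and Mir125b-1), where 5.12% of all tested features were higher, and 0 were lower by limma, with or without voom weights, where 19% were. At an unadjusted p under 0.05, 1 of them was lower (Mir125a). In Dnmt1 KO against WT 2 were higher (Mir100 and Mir125b-1), where 6.59% of tested features were, and in Dicer/Dnmt1 KO against Dnmt1 KO 1 was lower (Mir125a), where 21.7% were. Genes high in a knockout alone entered the test through that knockout, so these counts describe the 5 genes and support nothing further.

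The 5′ arms of the hairpins are printed because their seeds divide the genes into families and because their near identity bears on which gene a read can be given to. Seeds, bases 2 to 8 counted from the 5′ end, are in capitals. Sequences are those of RefSeq (GRCm38.p6).
miR-99b-5p: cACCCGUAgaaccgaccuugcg
miR-99a-5p: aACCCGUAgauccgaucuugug
miR-100-5p: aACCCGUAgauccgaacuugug
miR-125a-5p: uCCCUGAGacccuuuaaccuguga
miR-125b-5p: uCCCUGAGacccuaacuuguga
let-7e-5p: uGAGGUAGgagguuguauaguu
The first 3 share the seed ACCCGUA, and from miR-100-5p to miR-99a-5p the only change is A16U, with position 1 at the 5′ end. miR-99b-5p matched miR-99a-5p at 18 of 22 positions. miR-125a-5p and miR-125b-5p share the seed CCCUGAG and 15 of their first 22 positions without gaps. Mir125b-1 and Mir125b-2 encode the same 5′ arm, so a read of that arm fits both genes, and how reads with several positions were placed is not stated. Each row counts a whole hairpin, so the 5′ and 3′ arms could not be counted apart.

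On NCBIM37, the build of the files, Mir99b (chr17:17967152-17967221), Mirlet7e (chr17:17967307-17967423) and Mir125a (chr17:17967767-17967851) lie in a row. Mir99a (chr16:77599181-77599245) and Mir125b-2 (chr16:77646518-77646588) lie on either side of Mirlet7c-1, and Mir100 (chr9:41339508-41339587) and Mir125b-1 (chr9:41390009-41390085) on either side of Mirlet7a-2. Only 4 of the 7 symbols stand in the table. Mirlet7e, Mir100 and Mir125b-1 were found by an exact match of their RefSeq hairpins to the genome, inside the rows named AC165361.1, CT009696.2 and CT025619.1. The row that holds let-7e is annotated on the strand opposite to its hairpin, but the counting did not separate strands. Mir125a lies in an exon of Ncrna00085, Mir99a in an intron of Gm11146 on the opposite strand, Mir100 in an intron of the lincRNA D230004N17Rik and Mir125b-1 in introns of both D230004N17Rik and 2610203C20Rik.

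Libraries held 8710 to 245184 reads, so that 1 read was worth 4.08 to 114.8 reads per 1000000 library reads (RPM), and a count of 0 allows 3 reads, which came to 12.2 to 344.4 RPM. WT 2A, with 16142 reads, and Dicer/Dnmt1 KO 1B, with 8710, were the only libraries under 20000 reads. The ESC miRNAs Mir290 to Mir295 and the Mir302 cluster with Mir367 had reads in 12 of 12 genes, and summed to 28683 to 93275 RPM in WT, to 55926 and 99648 RPM with Dnmt1 deleted, and to 1221 to 3797 RPM with both genes deleted. miRNA rows took 6.5% to 12.7% of the counts in Dicer/Dnmt1 KO, against 29.5% to 65.8% in WT and 51.4% and 53.4% for the Dnmt1 KO pair. Dicer1 had at most 3 reads in a library, and Dnmt1 had 0 to 18 in WT and 8 and 9 in Dnmt1 KO. RNA fragments of 20 to 24 nt from an mRNA do not tell whether the deleted part is present, so these rows check nothing about the labels.

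Mir99b, the miR-99 gene of the cluster, was read in 11 of 12 libraries. In WT its level was lowest in 3B at 521 RPM, had a median of 712 RPM and was highest in 2A at 2168 RPM (mean 937 ± 613, SD, n = 6). Dnmt1 KO A had 2970 RPM and B had 2156 RPM. Dicer/Dnmt1 KO had 1225 RPM in 1A, 0 in 1B, 4493 in 2A and 518 in 2B. Dnmt1 KO B lay just under WT 2A, and the Dicer/Dnmt1 KO libraries ran from below to above every other library. By group means, Dnmt1 KO (2563 ± 576 RPM, SD, n = 2) stood above Dicer/Dnmt1 KO (1559 ± 2020, n = 4) and WT, but the groups overlapped at each step of that order.

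No difference of Mir99b passed the test. The test was limma on log2(RPM + 10) with scaling by trimmed means of log ratios (TMM), adjusted by Benjamini-Hochberg over 683 features at 0.05. The fitted log2 fold change was 1.76 ± 1.54 (SE) in Dnmt1 KO against WT (adjusted p = 0.606) and -1.63 ± 1.22 in Dicer/Dnmt1 KO against WT (adjusted p = 0.421). The second value rested on Dicer/Dnmt1 KO 1B, whose 0 reads allow up to 344.4 RPM, since it was 0.05 without that library (adjusted p = 0.978). Without both shallow libraries, where 15% of tested features were higher in Dnmt1 KO, the values were 2.49 (adjusted p = 0.014) in Dnmt1 KO and 0.73 (adjusted p = 0.348) in Dicer/Dnmt1 KO. Dicer/Dnmt1 KO against Dnmt1 KO gave -3.39 ± 1.63 (adjusted p = 0.205), and -4.38 without Dicer/Dnmt1 KO 2A (adjusted p = 0.0423), a fit that keeps the 0 reads of 1B. The change was -1.71 without Dicer/Dnmt1 KO 1B (adjusted p = 0.285) and -1.77 without both shallow libraries (adjusted p = 0.064).

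Mir125a, the miR-125 gene of the cluster, was the only one of the 5 genes past the filter that was called lower in the double knockout with all libraries in that fit, and the call was lost with no filter. WT libraries ran from 175 RPM in 1A to 681 RPM in 2A with a median of 389 RPM (mean 415 ± 166, SD, n = 6). Dnmt1 KO A and B had 1093 and 1106 RPM. Dicer/Dnmt1 KO had 572 RPM in 1A, 115 in 1B from 1 read, 331 in 2A and 99.5 in 2B. Both Dnmt1 KO libraries lay above every other library, while WT and Dicer/Dnmt1 KO overlapped.

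Against Dnmt1 KO, Mir125a fell by 3.26 ± 0.79 on the log2 scale in Dicer/Dnmt1 KO (adjusted p = 0.00614). In that comparison 21.7% of all tested features and 74.4% of the 133 tested miRNAs were lower, and the median change of the miRNAs was -4.17. The adjusted p of Mir125a stayed between 0.00196 and 0.0381 with any single library left out, but was 0.059 with A and B summed and 0.471 with no filter on low values. In Dicer/Dnmt1 KO against WT the change was -1.61 ± 0.59 (adjusted p = 0.0636), and the test was passed without WT 1A (-1.86, adjusted p = 0.0323) or without Dicer/Dnmt1 KO 1A (-1.97, adjusted p = 0.0327). In that comparison 19% of all tested features and 60.9% of tested miRNAs were lower, with a median over miRNAs of -2.75. In Dnmt1 KO against WT the change was 1.65 ± 0.74 (adjusted p = 0.259). It passed without the pair titled E14 2, which is WT 2A and 2B (1.99, adjusted p = 0.0333, with 14.5% of tested features higher in that fit), and without both shallow libraries (2.27, adjusted p = 0.0134). The host Ncrna00085 carried the reads of Mir125a and little else, 507 reads against 497 over the 12 libraries, and gave -3.18 ± 0.78 between the knockouts (adjusted p = 0.00661).

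The row of let-7e, the third gene of the cluster, rose in the double knockout. WT libraries had 0 to 49.9 RPM with a median of 20.8 RPM (mean 22.7 ± 21.3, SD, n = 6), and 2A and 3A had no read. Dnmt1 KO A and B had 236 and 167 RPM. Dicer/Dnmt1 KO had 81.7 RPM in 1A, 1148 in 1B, 394 in 2A and 86.3 in 2B, from 2, 10, 25 and 13 reads. By measured RPM all libraries of both knockouts lay above all WT libraries, and the knockouts overlapped each other. The 0 reads of WT 2A allow up to 185.9 RPM, which is above Dnmt1 KO B and Dicer/Dnmt1 KO 1A and 2B. The share of all features in such an order was not counted.

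The fitted change of let-7e was 2.65 ± 0.77 in Dicer/Dnmt1 KO against WT (adjusted p = 0.0211), where 5.12% of all tested features and 12% of tested miRNAs were higher. The call was kept in 16 of 24 alternatives. It was lost without Dicer/Dnmt1 KO 1B (2.03, adjusted p = 0.0761) or 2A (2.6, adjusted p = 0.0552) and without both shallow libraries (adjusted p = 0.0556). Its adjusted p was 0.0605 with a pseudocount of 1, 0.0787 with A and B summed, 0.0902 with culture as a random block, 0.126 with the replicate block and 0.282 with no filter. In Dnmt1 KO against WT the change was 3.34 ± 0.98 (adjusted p = 0.0586), and 3.25 without both shallow libraries (adjusted p = 0.014). The knockouts differed by -0.69 ± 1.03 (adjusted p = 0.787). The row met the filter on low values, 111.3 RPM in at least 2 libraries, through knockout libraries alone, so a low level in WT was built into its being tested.

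**Figure D1:**
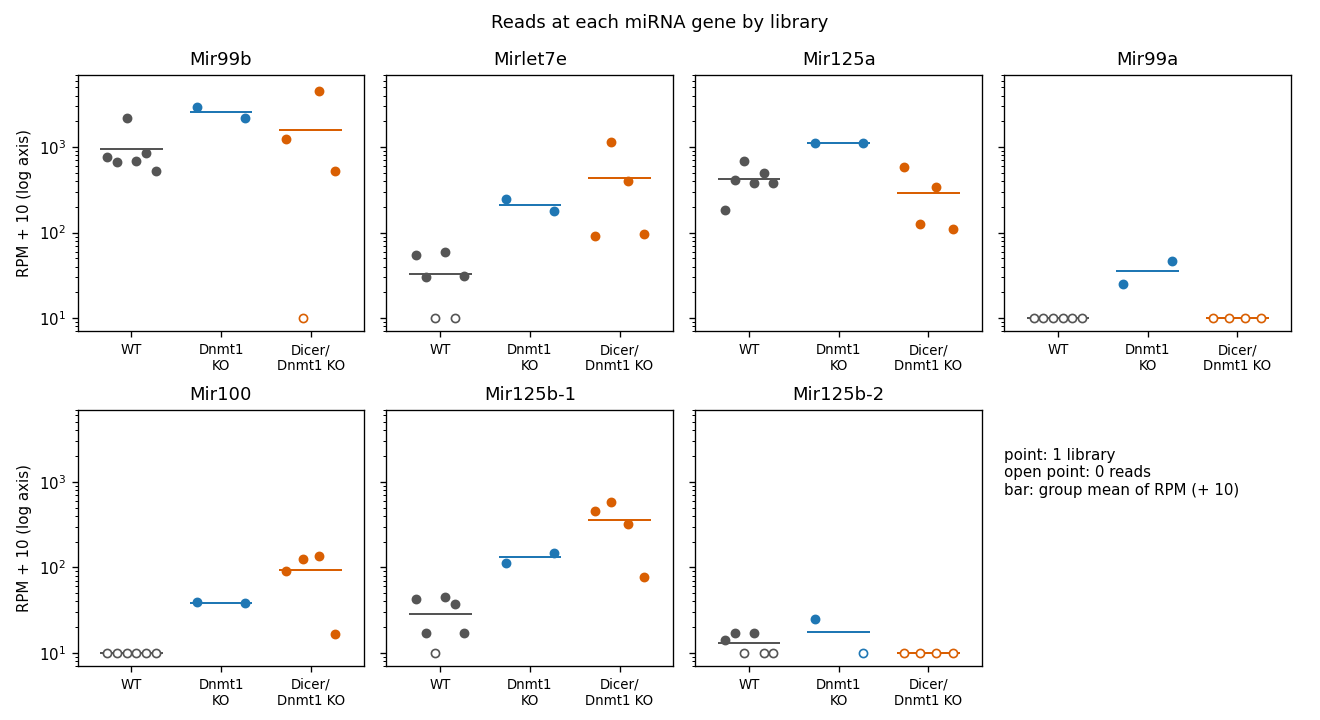
Level of each of the 7 miRNA genes in each library, as RPM + 10 on a log axis, with WT in grey, Dnmt1 KO in blue and Dicer/Dnmt1 KO in orange. Each point is 1 library, in the order A, B or 1A to 3B, open points had 0 reads and bars are group means. Mir99b and Mir125a were read in WT at 175 RPM or more in 6 of 6 libraries, whereas Mirlet7e, Mir100 and Mir125b-1 measured under 50 RPM there and higher in both knockouts. The latter genes each had 0 reads in WT 2A, which allows up to 185.9 RPM in that library.

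The 3 genes of the cluster did not keep the same proportions in each library. Of their summed reads, Mir99b made up 66.1 ± 8.44% in WT (SD, n = 6), 66.0 ± 4.38% in Dnmt1 KO (n = 2) and 56.2 ± 38.5% in Dicer/Dnmt1 KO (n = 4). Mir125a made up 31.7 ± 8.72%, 28.8 ± 4.82% and 15 ± 10.8%, and let-7e 2.23 ± 2.06%, 5.19 ± 0.44% and 28.8 ± 41.6%. The mean for let-7e in Dicer/Dnmt1 KO was carried by 1B, where 10 of 11 reads were let-7e (90.9%, Wilson 95% interval 62.3% to 98.4%, counting error only). The other 3 libraries of that group had 4.35% to 12.3%, and WT had 0% to 4.64%.

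Exact two-sided permutation tests compared these shares between Dicer/Dnmt1 KO and WT. Libraries and not cultures were the units, so the p-values treat A and B as independent. The share of Mir125a was lower by 16.7 percentage points (exact p = 0.0381, adjusted p = 0.171 over 9 tests), and that of let-7e higher by 26.5 points (exact p = 0.0286, adjusted p = 0.171). Neither held after adjustment. The difference for Mir99b was -9.86 points (exact p = 0.714, adjusted p = 0.918) and turned to 8.88 points without Dicer/Dnmt1 KO 1B. The comparisons with Dnmt1 KO could not reach 0.05, since the smallest p they allow is 0.0714 against WT and 0.133 against Dicer/Dnmt1 KO. The shares are of reads and were not corrected for the lengths of the rows.

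**Figure D2:**
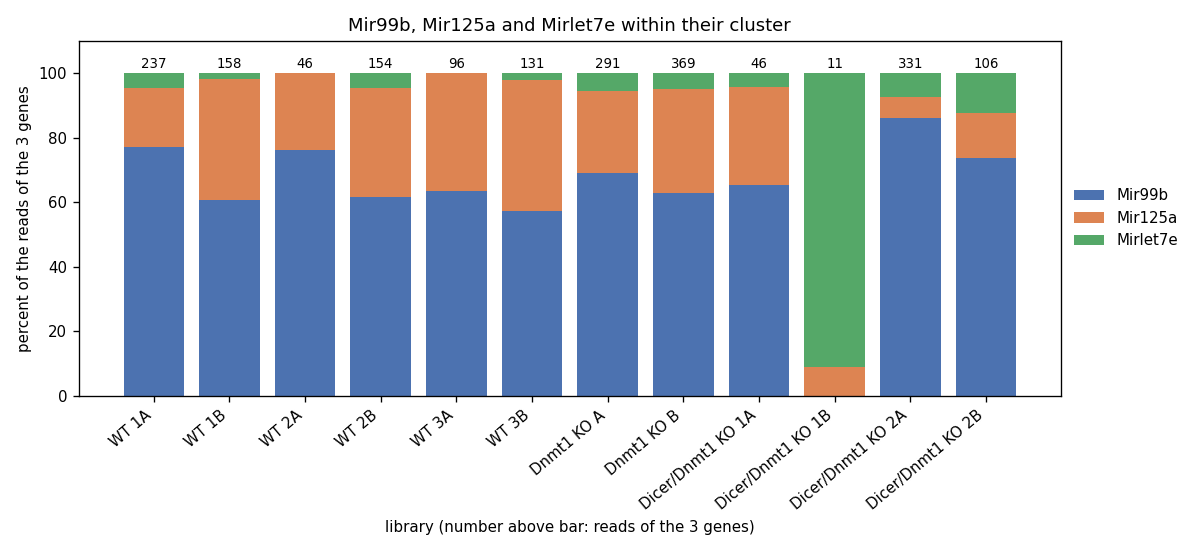
Percent of the summed reads of Mir99b, Mir125a and Mirlet7e that came from each gene, 1 bar per library, with the summed reads above each bar. Mir99b gave most reads in 11 of 12 libraries, and in Dicer/Dnmt1 KO 1B, with 11 reads, 10 came from Mirlet7e.

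The relatives on chromosome 9 had few or no reads in WT and were read in every knockout library. Mir125b-1 had 0 to 35.7 RPM in WT with a median of 17.3 RPM (mean 18.3 ± 15.4, SD, n = 6), 103 and 139 RPM in Dnmt1 KO A and B, and in Dicer/Dnmt1 KO 449 RPM in 1A, 574 in 1B, 315 in 2A and 66.4 in 2B. By measured RPM every knockout library lay above every WT library, and 3 of 4 Dicer/Dnmt1 KO libraries lay above both of Dnmt1 KO. The 0 reads of WT 2A allow up to 185.9 RPM, which is above Dnmt1 KO A and B and Dicer/Dnmt1 KO 2B. The share of all features in such an order was not counted. The fitted change of Mir125b-1 was 2.92 ± 0.61 in Dicer/Dnmt1 KO against WT (adjusted p = 0.00215). It passed in 23 of 24 alternatives, and the exception was the test with no filter on low values (2.69, adjusted p = 0.0951). Like let-7e, the row met the filter through knockout libraries alone, and the alternatives that keep the filter share that selection.

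In Dnmt1 KO against WT, Mir125b-1 changed by 2.75 ± 0.77 (adjusted p = 0.0483), where 6.59% of all tested features and 21.1% of tested miRNAs were higher. That call lay at the threshold and was kept in 10 of 23 alternatives. Leaving out single libraries moved its adjusted p from 0.0227 to 0.522. Between the knockouts the difference was 0.16 ± 0.81 (adjusted p = 0.936), while the median miRNA fell by 4.17 there. Of the introns that hold it, 2610203C20Rik gave 3.00 ± 0.59 (adjusted p = 0.0013) and D230004N17Rik 3.29 ± 0.59 (adjusted p = 0.000619) in Dicer/Dnmt1 KO against WT. Of the 88 reads of 2610203C20Rik over the 12 libraries, 85 were those of Mir125b-1. Nearly all reads of D230004N17Rik were likewise those of Mir100 and Mir125b-1. Both host values therefore largely count the reads of these genes again and are not separate evidence. Both host rows also met the filter on low values through knockout libraries alone.

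Mir100, with the same seed as Mir99b, had 0 reads in 6 of 6 WT libraries, which over 762641 reads allows up to 3.93 RPM. Dnmt1 KO A and B had 29.6 and 27.9 RPM from 2 and 3 reads. Dicer/Dnmt1 KO had 81.7 RPM in 1A, 115 in 1B, 126 in 2A and 6.64 in 2B, from 2, 1, 8 and 1 reads. Over the pooled reads of each group, Mir100 in Dicer/Dnmt1 KO was 12.3-fold a floor of 3 reads over the WT group, and in Dnmt1 KO 7.25-fold. The counting error of the 12 and 5 knockout reads is left out, so neither ratio is a lower bound. The test was passed in Dicer/Dnmt1 KO (adjusted p = 0.00314) and in Dnmt1 KO (adjusted p = 0.0483), in limma fits whose fold changes are set by the pseudocount. The first call was lost with voom weights (adjusted p = 0.0802), and the second was kept in 5 of 14 alternatives. The row rests on 17 reads and entered the test through Dicer/Dnmt1 KO 1B and 2A, the first of them with 1 read, and it stayed in the test in 4 of the 12 fits that left out a library.

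The relatives on chromosome 16 had too few reads to pass the filter and were tested only in the fit with no filter. Mir99a was read in Dnmt1 KO alone, with 1 read in A and 4 in B (14.8 and 37.2 RPM), and had 0 reads in the 6 WT and 4 Dicer/Dnmt1 KO libraries. Over pooled reads this was 7.25-fold a floor of 3 reads over the WT group and 2.35-fold such a floor over the Dicer/Dnmt1 KO group. The counting error of the 5 reads is left out, so neither ratio is a lower bound. In the fit with no filter, limma called Mir99a between the knockouts, as lower with both genes deleted (adjusted p = 0.0422), and gave an adjusted p of 0.0524 in Dnmt1 KO against WT, on these 5 reads. Its host Gm11146, on the opposite strand, had the same 5 reads. Mir125b-2 had 1 read each in WT 1A, 1B and 2B and Dnmt1 KO A, and none in the other 8 libraries, which is at the limit of detection, and passed in none of the 3 comparisons of that fit (adjusted p = 0.732 to 1). Mirlet7c-1 and Mirlet7a-2, the let-7 genes between these relatives, had 0 reads in 12 of 12 libraries, as had Mirlet7c-2, which has the same 5′ arm as Mirlet7c-1.

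**Figure D3:**
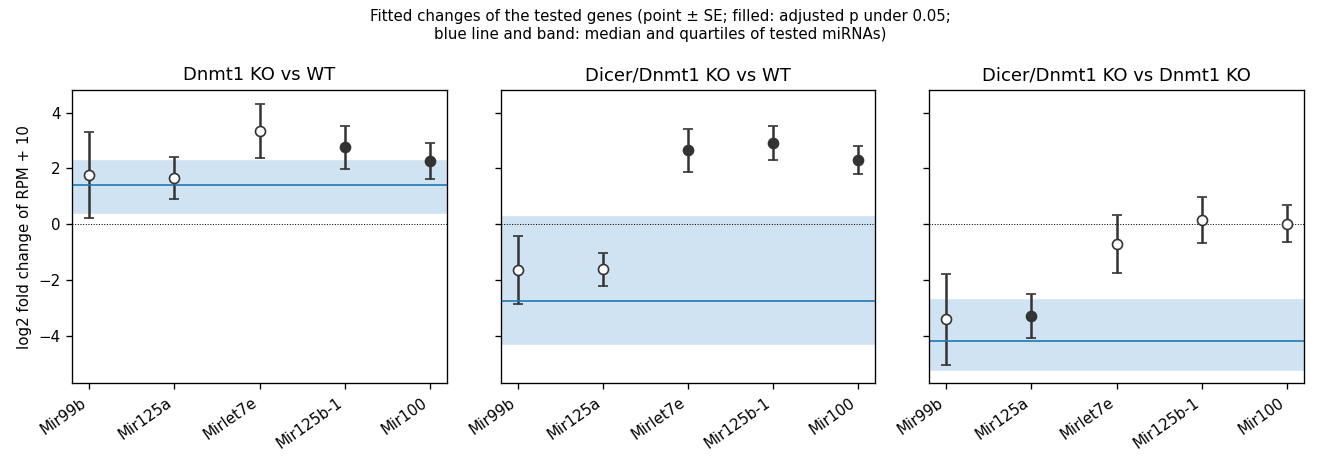
Fitted log2 fold changes of RPM + 10 for the 5 tested genes in 3 comparisons, as point ± SE, filled where the adjusted p was under 0.05, with the median and quartiles of the 133 tested miRNAs as a blue line and band. In Dicer/Dnmt1 KO against WT the points of Mirlet7e, Mir125b-1 and Mir100 lie at 2.31 to 2.92 while the miRNA median is -2.75. Those 3 rows met the filter on low values through knockout libraries alone, so a low level in WT was built into their being plotted. The value of Mir100 is set by the pseudocount. The WT libraries serve the first 2 panels and the Dicer/Dnmt1 KO libraries the last 2, so the panels are not independent.

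Over all features the median change was 0.13 in Dnmt1 KO against WT, -0.09 in Dicer/Dnmt1 KO against WT and -0.16 between the knockouts. Without scaling factors the median of Dicer/Dnmt1 KO against WT moved to 0.61, and the changes were -1.02 for Mir99b, -0.79 for Mir125a, 3.28 for let-7e, 3.55 for Mir125b-1 and 2.83 for Mir100. Across the 3 other scalings tried, the directions of these 5 genes in the 3 comparisons were kept except for let-7e between the knockouts, which turned without scaling factors from -0.69 to 0.28 against an all-feature median of 0.75. As a part of all miRNA reads, Mir99b came to 0.134% to 0.312% in WT, 0.344% and 0.454% with Dnmt1 deleted, and 0% to 4.38% with both deleted, where the pool of miRNA reads was smaller. In bulk RNA, fewer cells that make a miRNA and less miRNA per cell cannot be told apart.

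Related genes were read against lists. Of 9 other let-7 genes, 8 had a read and 2 were tested. Against WT, 12% of tested miRNAs were higher in Dicer/Dnmt1 KO and 21.1% in Dnmt1 KO, and 5.12% and 6.59% of all tested features. Mirlet7i, a single-copy let-7 gene, rose by 3.61 ± 0.58 in Dicer/Dnmt1 KO (adjusted p = 0.000241) and by 3.67 ± 0.73 in Dnmt1 KO (adjusted p = 0.00613), both against WT. Mirlet7d rose by 1.90 ± 0.58 in Dicer/Dnmt1 KO (adjusted p = 0.0279) and had 1.5 ± 0.74 in Dnmt1 KO (adjusted p = 0.308). Both rows met the filter on low values through knockout libraries alone, Mirlet7d through Dicer/Dnmt1 KO 2A and 1B, the latter with 1 read. By limma with no filter, the adjusted p of Mirlet7i was 0.0173 in Dicer/Dnmt1 KO and 0.333 in Dnmt1 KO. That of Mirlet7d was 0.373 in Dicer/Dnmt1 KO. Summed over the 9 genes, levels were 0 to 85.6 RPM in WT, 438 to 1687 RPM in Dicer/Dnmt1 KO, and 473 and 585 RPM for the Dnmt1 KO pair. By measured RPM both knockouts lay above WT for the list, as for let-7e itself. Mirlet7i gave 125 of the 200 list reads in Dicer/Dnmt1 KO and 54 of 95 in Dnmt1 KO. With no filter, limma also called Mir98 in Dnmt1 KO (3.35, adjusted p = 0.00644) and Mirlet7b in Dicer/Dnmt1 KO (1.76, adjusted p = 0.0407), both against WT. Mirlet7f-1 had -0.21 in Dicer/Dnmt1 KO and -0.68 in Dnmt1 KO in that fit and passed in neither. Mir10a and Mir10b, whose seed resembles that of miR-99, were both tested and neither passed in any comparison by limma, with Mir10a at an unadjusted p under 0.05 in 1 of the 3. Their changes in Dicer/Dnmt1 KO against WT were 1.62 ± 0.63 (adjusted p = 0.0819) and -0.34 ± 0.78 (adjusted p = 0.837). Of 15 genes for miRNA processing, among them Drosha, Dgcr8, Lin28a and Lin28b, 14 had a read and 0 had enough for the test.

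Markers of cell types that a culture could hold were counted beside these values. In Dicer/Dnmt1 KO against WT, 60.9% of tested miRNAs and 19% of all tested features were lower, with a median over miRNAs of -2.75. Whether a fall of a marker there reflects fewer cells of that type was not tested. In Dnmt1 KO against WT, 21.1% of tested miRNAs were higher. Of the 10 tested ESC miRNAs, 10 fell in Dicer/Dnmt1 KO against WT, from Mir290 (-2.74) and Mir302b (-3.40) through Mir302a (-4.73), Mir295 (-4.78), Mir291a (-5.38), Mir302d (-5.39), Mir291b (-5.44) and Mir293 (-6.32) to Mir292 (-6.34) and Mir294 (-6.45), and 0 passed in Dnmt1 KO against WT by limma, where 1 was higher and 1 lower at an unadjusted p under 0.05. Of 10 mesenchymal miRNAs, which fibroblast feeder cells would carry, 8 had a read and 4 were tested. In Dnmt1 KO against WT 3 of these rose, with Mir143 at 3.63 ± 0.70 (adjusted p = 0.00506), Mir22 at 2.62 ± 0.54 (adjusted p = 0.00762) and Mir21 at 1.73 ± 0.41 (adjusted p = 0.0216). In Dicer/Dnmt1 KO against WT Mir143 rose by 2.95 ± 0.55 (adjusted p = 0.0009) and Mir34c fell by 1.77 ± 0.44 (adjusted p = 0.00758). Mir21 (-0.66 ± 0.33, adjusted p = 0.186) and Mir22 (-0.78 ± 0.43, adjusted p = 0.241) did not pass there. Between the knockouts Mir22 (-3.40), Mir34c (-2.54) and Mir21 (-2.39) were lower and Mir143 did not pass (-0.68), where 74.4% of tested miRNAs were lower. Without scaling factors, the list summed to 7062 to 14044 RPM in WT and 10013 to 33171 RPM in Dicer/Dnmt1 KO. The Dnmt1 KO pair had 37605 and 46270 RPM, and Mir199a-1 and Mir199b had 0 reads. Within Dicer/Dnmt1 KO, 2B was lowest for the mesenchymal sum, for Mir100, for Mir125b-1 and for Mir125a, and 2A was highest for the mesenchymal sum, Mir99b and Mir100. The other extremes lay elsewhere, with Mir99b lowest and let-7e and Mir125b-1 highest in 1B, and let-7e lowest and Mir125a highest in 1A. The part of feeder cells in the values of the 7 genes was not tested. Blood miRNAs had 2 tested genes, Mir142 (-4.79 ± 0.56, adjusted p = 1.59e-05) and Mir150 (-4.39 ± 0.64, adjusted p = 0.000109), both lower in Dicer/Dnmt1 KO against WT. The neural list had 0 tested genes and at most 195 RPM in sum, and the muscle list had 0 reads.

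**Figure D4:**
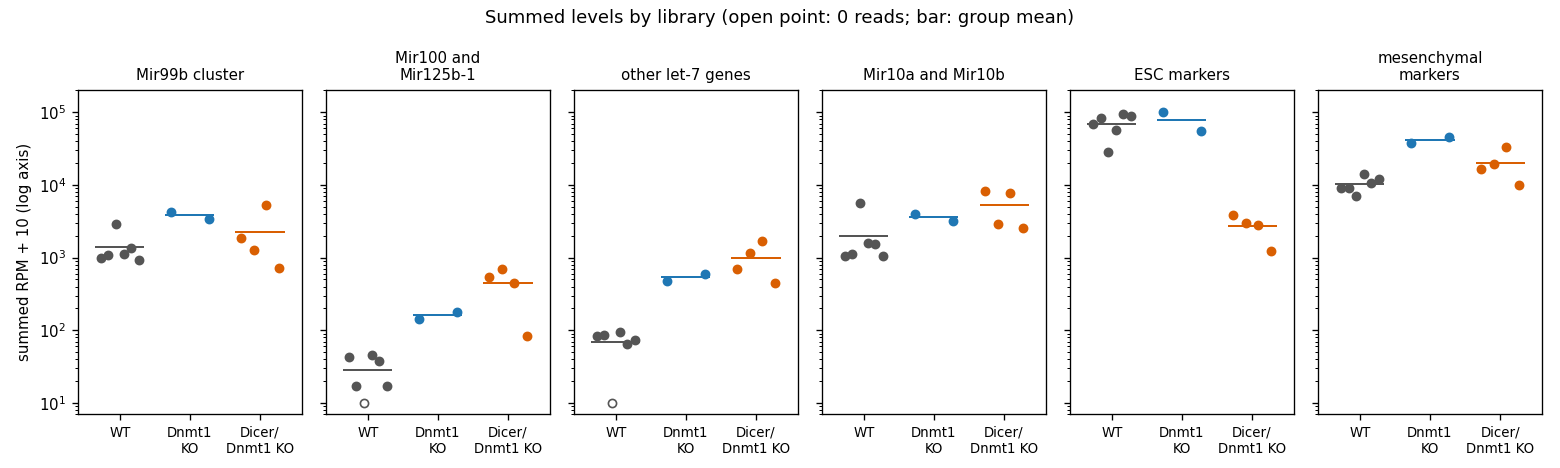
Summed RPM + 10 on a log axis by library for the Mir99b cluster, for Mir100 with Mir125b-1, and for 4 lists of other miRNAs, with bars as group means and open points for 0 reads. Mir100 with Mir125b-1 and the other let-7 genes lie lower in WT than in both knockouts, whereas the ESC miRNAs lie at 1221 to 3797 RPM in Dicer/Dnmt1 KO against 28683 RPM or more in WT. The open points of WT 2A allow up to 185.9 RPM, above some knockout points of Mir100 with Mir125b-1.

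Likeness across the 12 libraries is given as a description, since libraries of 1 group share genotype and depth. Among the 7 genes, Mir99b went with Mir125a (Pearson r = 0.78 on the log2 scale), and Mir100 with Mir125b-1 (r = 0.90). The row of let-7e went with Mir125b-1 (r = 0.84) and Mir100 (r = 0.80) rather than with its neighbours Mir99b (r = -0.28) and Mir125a (r = -0.27). These r take in both shallow libraries. Dicer/Dnmt1 KO 1B had 10 reads of let-7e, 0 of Mir99b and 1 of Mir125a. WT 2A had 0 reads of let-7e, 35 of Mir99b and 11 of Mir125a. Likeness without these libraries was not computed, so the negative r do not show that let-7e varied apart from its cluster. Of 675 tested features outside the cluster and its hosts, those most like the mean of the 3 cluster genes were Mir22 with the overlapping Tlcd2 and 2210403K04Rik (r = 0.87 each), Mir470 (r = 0.87) and 2010111I01Rik (r = 0.85). Those most like the mean of the 4 relatives were Atp9a (r = 0.93), AF357428 (r = 0.92), Mirlet7i (r = 0.91), SNORD127 (r = 0.89) and Mir411 (r = 0.88). Mir22 had 3388 RPM in WT, 17955 RPM in Dnmt1 KO and 3856 RPM in Dicer/Dnmt1 KO by group means, and Mirlet7i had 25.3, 295 and 618 RPM.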

How the data were processed

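Small RNA-seq was analysed from 12 libraries. By the submitters' processing notes and the published methods, reads were trimmed (Trim Galore 0.3.5), kept at 20 to 24 nt, mapped to NCBIM37 with Bowtie2 2.2.6 and counted over annotated features in SeqMonk. The authors deposited log2 RPM values (reads per 1000000 library reads), with 0 reads written as 0.9 read, from which whole reads came back for 100% of values in 12 of 12 libraries (tolerance 0.01 read). A further 89 value columns belong to no sample used here and were not used. Groups followed the genotype labels.

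Reads were scaled by TMM (30% of log ratios and 5% of abundances trimmed) and log2(RPM + 10) was fitted in R 4.3.3 with limma 3.58.1, allowing the variance to follow the mean, in 1 fit over 3 groups without covariates. This scale understates changes of genes with few reads. Tested features had 111.3 RPM, which is 10 reads at the median depth, in 2 libraries and 15 reads in total. They numbered 683, of which 133 were miRNAs and 5 of the 7 genes described. A design for whole counts was not used because the deposited unit is log2. The fit was tried on simulated counts for Dicer/Dnmt1 KO against WT, with the same assumed spread for all features and independent libraries. That trial does not cover the other comparisons or the spread between A and B. Shares were compared with exact permutation tests (2 times the smaller tail).

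Members, lists and tests were chosen with earlier results of these data known. Named features are the 7 genes, their cluster partners, overlapping features, list members that passed the test and the 5 features most like each cluster. A and B differed by more than sampling noise in 6 of 6 cultures (chi-square per degree of freedom 13.6 to 42.5) and stayed separate. Culture numbers were not used to pair groups in the main fit. Alternatives were other scalings, pseudocounts of 1 and 50, no filter, voom, A and B summed, culture or number as a block, and libraries left out. The fits without both shallow libraries were added after seeing the data.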

Additional observations from a re-analysis of the deposited data

Results flagged for a closer look

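Within-group outliers were sought by the gap of the highest or lowest library to its neighbour over the group's range, in 18 groups of values from WT and Dicer/Dnmt1 KO, and chance gives about 1 such gap in 20 groups. Mir99b in WT 2A (2168 RPM, from 35 reads) stood above the other 5 WT libraries, with a gap of 0.803 of the range. The summed cluster stood apart in the same library (2850 RPM, gap 0.783). WT 2A is among the shallow libraries, and without the pair titled E14 2 the mean of Mir99b in WT was 694 ± 137 RPM (SD, n = 4). The share of let-7e among cluster reads in Dicer/Dnmt1 KO 1B (90.9%, gap 0.909) rests on 11 reads. The causes were not tested.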

How the results depend on the processing

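A count of 0 allows 344.4 RPM in the shallowest library, and A and B differed beyond counting noise. Where a value changed, the cause was not tested. In Dnmt1 KO against WT, 6.59% of tested features were higher in the main fit, 14.5% without E14 2 and 15% without both shallow libraries. Counts of called genes below take both directions together. Without Dicer/Dnmt1 KO 1A, for example, 3 of the 7 genes were higher and 1 lower in Dicer/Dnmt1 KO against WT. All-feature counts for Dicer/Dnmt1 KO against WT (165) and against Dnmt1 KO (156) stayed within 1.5 times in the alternatives run. For Dnmt1 KO against WT the count of 47 became 31 with a pseudocount of 1, 80 with voom, 17 with A and B summed, 30 with culture as a random block, 181 without E14 2, 141 without both shallow libraries, and 16 to 84 with 1 library left out, a lone Dnmt1 KO library being taken to vary like the other groups. Of the 7 genes, 3 were called in Dicer/Dnmt1 KO against WT, and 1 with no filter (Mir100), with A and B summed or with the replicate block (Mir125b-1 in both), and 1 to 4 with 1 library left out. In Dnmt1 KO against WT 2 were called, and 0 with library reads unscaled, medians of ratios, no filter, A and B summed or culture as a random block, 1 with a pseudocount of 1, 4 without E14 2, 5 without both shallow libraries and 0 to 2 with 1 library left out. Between the knockouts 1 was called (Mir125a), 1 with no filter, which was Mir99a (adjusted p = 0.0422) and not Mir125a (0.471), 0 with A and B summed, and 1 to 2 with 1 library left out.

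Signs turned for Mir99b in Dicer/Dnmt1 KO against WT (0.25 with A and B summed, 0.73 without both shallow libraries, -2.42 to 0.052 with 1 library left out). Between the knockouts they turned around 0 for Mir100 (-0.10 with a pseudocount of 1, -0.50 with voom, -0.18 without both shallow libraries, -0.047 to 0.28 with 1 left out), Mir125b-1 (-0.02 with voom, -0.029 with A and B summed, -0.11 without both shallow libraries, -0.051 to 0.64 with 1 left out) and let-7e (0.28 unscaled). The difference in the share of Mir99b turned to 2.67, 0.42 and 2.24 points with A and B summed, in Dicer/Dnmt1 KO against WT, Dnmt1 KO against WT and between the knockouts, to 10.9, 1.88 and 9.0 points without both shallow libraries, and to 1.28 points for Dnmt1 KO against WT without E14 2. With 1 library left out it ran from -19.8 to 8.88, -3.22 to 2.98 and -19.7 to 9.0 points, and that of Mir125a in Dnmt1 KO against WT from -6.25 to 0.57 points.

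Numbers 1 and 2 are shared by WT and Dicer/Dnmt1 KO, but same-numbered cultures did not deviate together (correlations -0.28 and -0.40), and the main fit used no pairing. With 2 cultures in Dicer/Dnmt1 KO, their deviations mirror each other, so this check cannot exclude a pairing. With the number as a replicate block, Mir125b-1 changed by 3.00 (adjusted p = 0.0192) and let-7e by 2.42 (adjusted p = 0.126), and Mir100 was not tested, nor was it with A and B summed.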
